A study of Caenorhabditis elegans with 11 samples.

Results

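The bins described here are the flanks of the genome bins that the deposited table marks GRTS, at a distance of 2 to 5 kb. A bin is a 1 kb stretch of the Caenorhabditis elegans genome, and its distance is counted to the nearest GRTS bin of the same chromosome. The table holds 100257 bins, of which 191 are marked GRTS, and 520 bins lie 2 to 5 kb from 1 of these. Of the 520, 27 were left out because they carry a mark of their own, 26 as GRH and 1 as misanotated (spelled as in the table). The remaining 493 bins are the flank bins: 137 at 2 kb, 123 at 3 kb, 116 at 4 kb and 117 at 5 kb. The choice used distance and marks only. The sources used here do not say how the authors set the marks. They may rest on libraries like these, so counts near GRTS bins give no independent evidence of a direction.

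In nuclear RNA interference (RNAi), small RNAs guide an Argonaute protein to nascent transcripts in the nucleus, and transcription of the matching locus is repressed. HRDE-1 is such an Argonaute of the C. elegans germline, where it acts on repeats, transposons and some genes and carries silencing across generations. In the field, GRTS and GRH name regions whose transcriptional silencing, or whose heterochromatin, depends on germline nuclear RNAi. MET-2 and SET-25 are methyltransferases of histone H3 lysine 9, a mark of heterochromatin, and SET-32 is a protein with the same kind of catalytic (SET) domain. RNA polymerase II (Pol II) transcribes protein-coding genes, and its amount on DNA, measured by chromatin immunoprecipitation and sequencing (ChIP-seq), is a measure of transcription at that place.

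Pol II was profiled in young adult hermaphrodites fed the E. coli strain OP50, with 1 library for each of 8 genotypes. The 4 hrde-1 mutants lacked hrde-1 alone (hrde-1), with set-32 (set-32 hrde-1), with met-2 plus set-25 (named met-2 set-25 hrde-1), or with all of these genes (the quadruple mutant). Each has a partner with an intact hrde-1 gene: N2 (the wild type), then set-32, then met-2 set-25, then set-32 met-2 set-25. These partners name the 4 backgrounds, and values per library follow that order of backgrounds within each group. The alleles were tm1200 for hrde-1, red11 for set-32, n4256 for met-2 and n5021 for set-25. Each group therefore also holds libraries that lack set-32, or met-2 and set-25. Whole worms were used, so Pol II on fewer germline nuclei and less Pol II per nucleus cannot be told apart. The mutated genes were not checked here, because no gene annotation of the table's coordinates was at hand.

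Values are RPKM as deposited, which in bins of equal length are shares of a library's reads. Depth estimated from the step between low values was 2.99 to 6.6 M reads per library, so 10 RPKM rested on 29.9 to 66.0 reads with a counting error of 12.3 to 18.3%. The reads of the quadruple mutant and its partner set-32 met-2 set-25 were spread more evenly than the rest, with the 90th percentile of bins at 4.31 and 3.72 times the 10th percentile, against 7.63 to 24.96 in the other 6 libraries. The part of this evenness in the differences below was not tested. Low values near GRTS bins were less often whole reads: 65.3% of values up to 8 RPKM in the flanks lay within 0.1 read of a whole number, against 83.9% over all bins. How reads that map to several places were counted is not known, and its part in the differences was not tested, so counts over bins with mostly whole reads are given as well.

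Pol II in the flanks was higher in hrde-1 mutants, and the difference shrank with distance. The typical bin at 2 kb held 10.7 ± 1.34 RPKM in the hrde-1 mutants and 5.01 ± 1.58 RPKM in the other libraries (mean ± SD of 4 library medians each). By library, the median at 2 kb was 9.16, 12.4, 10.3 and 10.9 RPKM in the hrde-1 mutants, against 4.41, 3.29, 5.33 and 7.02 RPKM in their partners. Every hrde-1 mutant thus lay above every other library at this distance. At 3 kb the medians were 7.25 to 10.4 RPKM in the hrde-1 mutants and 3.26 to 6.93 RPKM in the other libraries, again without overlap. At 4 kb they were 5.82 to 8.65 RPKM in the hrde-1 mutants and 3.29 to 7.1 RPKM in the others, and at 5 kb 6.56 to 9.46 RPKM in the hrde-1 mutants and 3.64 to 7.26 RPKM in the others. There the groups overlapped, because set-32 met-2 set-25 read as high as some hrde-1 mutants. Each hrde-1 mutant still stayed above its own partner, from which its genotype differed by hrde-1 alone. Over all bins tested the library medians were 3.96 to 7.18 RPKM in the hrde-1 mutants and 3.62 to 7.1 RPKM in the others.

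**Figure D1:**
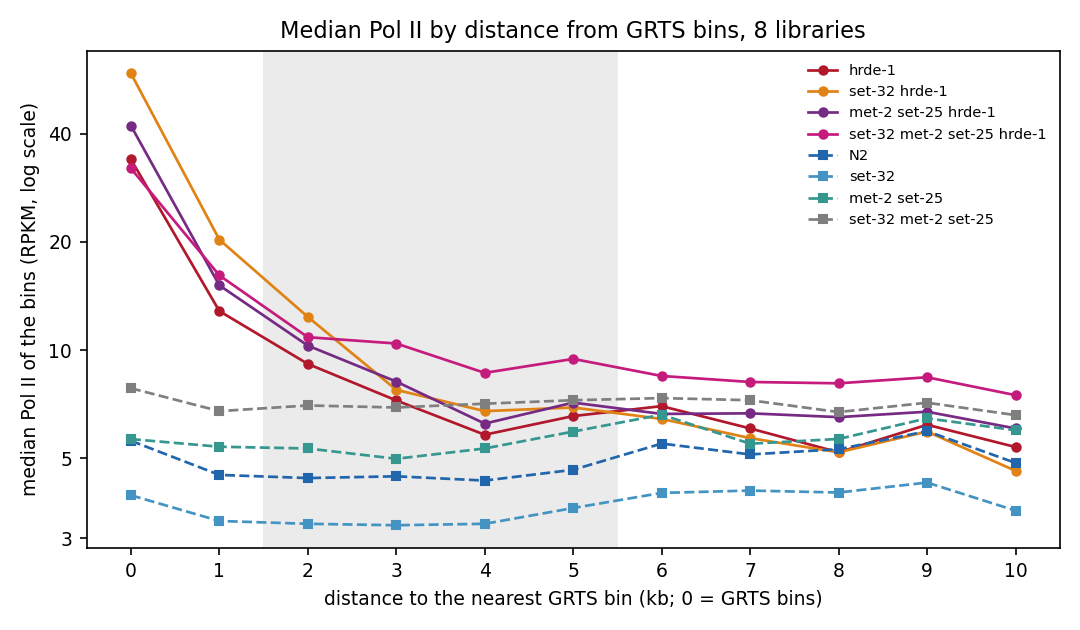
Median Pol II (RPKM, log scale) of unmarked bins by distance in kb from the nearest GRTS bin, with GRTS bins at 0; each line is 1 library, solid for hrde-1 mutants (the quadruple mutant is named by its 4 genes) and dashed for the others. The hrde-1 mutants start at 32.05 to 58.9 RPKM in GRTS bins, lie at 9.16 to 12.4 RPKM at 2 kb and approach the other libraries by 4 to 5 kb.

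The difference was tested in each bin with limma on log2(RPKM + 1), in a model with 1 term each for hrde-1, set-32 and met-2 set-25, and p-values were Benjamini-Hochberg adjusted over all 100027 bins that averaged 2 RPKM or more. All 493 flank bins passed that filter. The model has 4 residual degrees of freedom. Each genotype has 1 library and the labels name no separate cultures, so its p-values measure the spread of the libraries around the additive model. Of the 493 flank bins, 113 (22.9%) rose with hrde-1 loss at an adjusted p below 0.05, and 0 fell. Over all bins tested, 0.852% rose and 0.08% fell. At an unadjusted p below 0.05, limma placed 189 flank bins higher and 3 lower, against 2281 and 2610 of the 100027 bins tested. The median log2 change of the flank bins was 0.33, with quartiles of 0.03 and 1.00 and a range of -0.89 to 3.27, against a median of -0.04 over all bins. A change above 0 was found in 388 flank bins (78.7%), against 43.2% of all bins. In 113 flank bins all 4 hrde-1 mutants read above all 4 other libraries, and in 0 below them, against 1.22% and 0.84% of all bins. Without limma's intensity trend 34 flank bins rose, against 0.313% of all bins.

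By distance, 57 of 137 bins rose at 2 kb (41.6%), 29 of 123 at 3 kb (23.6%), 13 of 116 at 4 kb (11.2%) and 14 of 117 at 5 kb (12.0%). The median log2 change was 0.77 at 2 kb, 0.37 at 3 kb, 0.22 at 4 kb and 0.19 at 5 kb. Just short of the inner limit, at 1 kb from a GRTS bin, 102 of 159 unmarked bins rose (64.2%, median 1.34), and of the GRTS bins themselves 187 of 191 rose (median 2.58). Just beyond the outer limit, at 6 kb, 6 of 119 rose (5.04%, median 0.20), and over 6 to 10 kb 26 of 594 rose and 1 fell (4.38% higher, median 0.10). The share of bins that rose was thus higher at each flank distance than at 6 to 10 kb, and the share at 6 to 10 kb was itself above the 0.852% of the whole genome. Leaving out the quadruple mutant placed 20 bins higher at 4 kb in place of 13.

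The size of the change fell off together with its frequency. A change of at least 2-fold was seen in 58 bins at 2 kb, 32 at 3 kb, 17 at 4 kb and 16 at 5 kb. A change of at least 4-fold was seen in 12 bins at 2 kb, 5 at 3 kb and 0 at 4 or 5 kb. The distribution was skewed: at 2 kb the quartiles were 0.07 and 1.40, so that many bins hardly differed while others changed by 1.40 or more on the log2 scale. At 5 kb the quartiles were 0.01 and 0.54. Summed over GRTS bins and unmarked bins up to 5 kb, the flank bins were 58.5% of the bins and carried 19.8% of the difference in RPKM between hrde-1 mutants and the others. The GRTS bins carried 61.3% and the bins at 1 kb 18.9%.

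**Figure D2:**
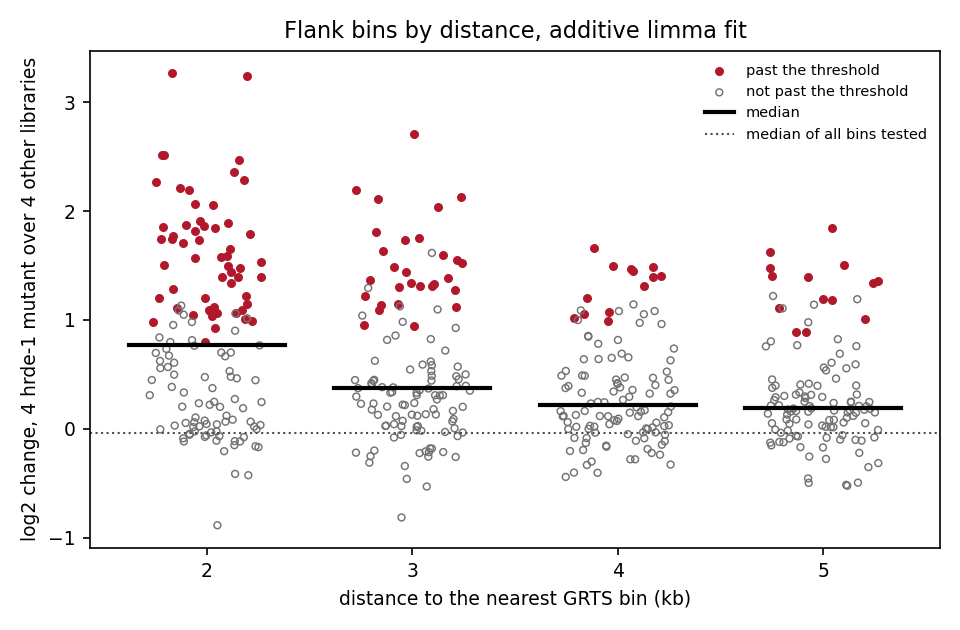
Log2 change of each of the 493 flank bins in the additive limma fit, 4 hrde-1 mutants over 4 other libraries, by distance in kb; filled points passed the threshold, open points did not, bars are medians and the dotted line is the median of all bins tested. The medians step down as 0.77, 0.37, 0.22 and 0.19, and no point passed the threshold below 0.

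Flank bins were found on chromosomes I to V and none on X, since no GRTS bin lies there. The share that rose ranged from 12 of 99 on chromosome II to 51 of 168 on chromosome V, with 22 of 74 on I, 13 of 43 on III and 15 of 109 on IV. Some flank bins are enclosed by GRTS bins. Of 32 bins with a GRTS bin within 10 kb on both sides, 24 rose (median log2 change 1.72), and of the other 461, 89 rose (19.3%, median 0.31). Of 15 flank bins within 1 kb of a GRH bin 8 rose, and of the 26 bins left out for a GRH mark 15 rose. Among the 200 flank bins whose low values were mostly whole reads, 35 rose (17.5%), against 0.392% of all such bins. By distance these were 17 of 47, 10 of 48, 4 of 55 and 4 of 50 at 2, 3, 4 and 5 kb. The share that rose thus fell from 2 to 4 kb in these bins as well. They were classed by their values up to 8 RPKM alone, with at least 2 such values per bin. How reads were counted in the higher values of these bins was not assessed.

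The comparison by genotype used 4 pairs of libraries that share no library and whose genotypes differ by hrde-1 alone, each called by its background. In the N2 and set-32 met-2 set-25 backgrounds the paired libraries also carry different name prefixes, so hrde-1 loss and prefix cannot be told apart there. With 1 library on each side there is no test, and a bin was counted when its log2(RPKM + 1) was higher by at least 1 and its hrde-1 mutant library held at least 10 RPKM. In the N2 background, 87 flank bins passed (17.6%), against 0.873% of all bins. In the set-32 background, 117 passed (23.7%), against 0.991%. In the met-2 set-25 background, 93 passed (18.9%), against 1.58%. In the set-32 met-2 set-25 background, 74 passed (15.0%), against 0.747%. In the opposite direction the same 4 pairs gave 1, 1, 3 and 1 flank bins, against 0.911%, 0.178%, 1.73% and 0.584% of all bins.

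All 4 pairs declined over the first kilobases. In the N2 background the bins that passed numbered 45 at 2 kb, 21 at 3 kb, 10 at 4 kb and 11 at 5 kb, and the median log2 difference was 0.80, 0.38, 0.17 and 0.14 at these distances. In the set-32 background they numbered 54, 32, 17 and 14, with medians of 1.00, 0.64, 0.52 and 0.37. In the met-2 set-25 background they numbered 47, 19, 14 and 13, with medians of 0.73, 0.40, 0.16 and 0.22. In the set-32 met-2 set-25 background they numbered 31, 25, 10 and 8, with medians of 0.42, 0.34, 0.16 and 0.23. With medians as measured, the set-32 background had the largest at every flank distance, and the set-32 met-2 set-25 background the smallest at 2 and 3 kb. In the GRTS bins themselves the medians were 2.47, 3.49, 2.53 and 1.81 in the order of backgrounds. Relative to the GRTS bins of the same pair, the median at 2 kb was 32.4%, 28.6%, 28.7% and 23.1%. The median over all bins was -0.05, 0.07, -0.18 and -0.01, and with each median taken relative to it the shares were 33.7%, 27.1%, 33.5% and 23.8%. On that relative scale the set-32 background no longer had the largest median at every distance. At 3 and 5 kb the met-2 set-25 background had 0.58 and 0.40, against 0.57 and 0.30 in the set-32 background. At 2 and 4 kb the set-32 background had 0.93 and 0.45, against 0.91 and 0.34 in the met-2 set-25 background. The set-32 library had the least even coverage (ratio 24.96) and both libraries of the fourth pair the most even.

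**Figure D3:**
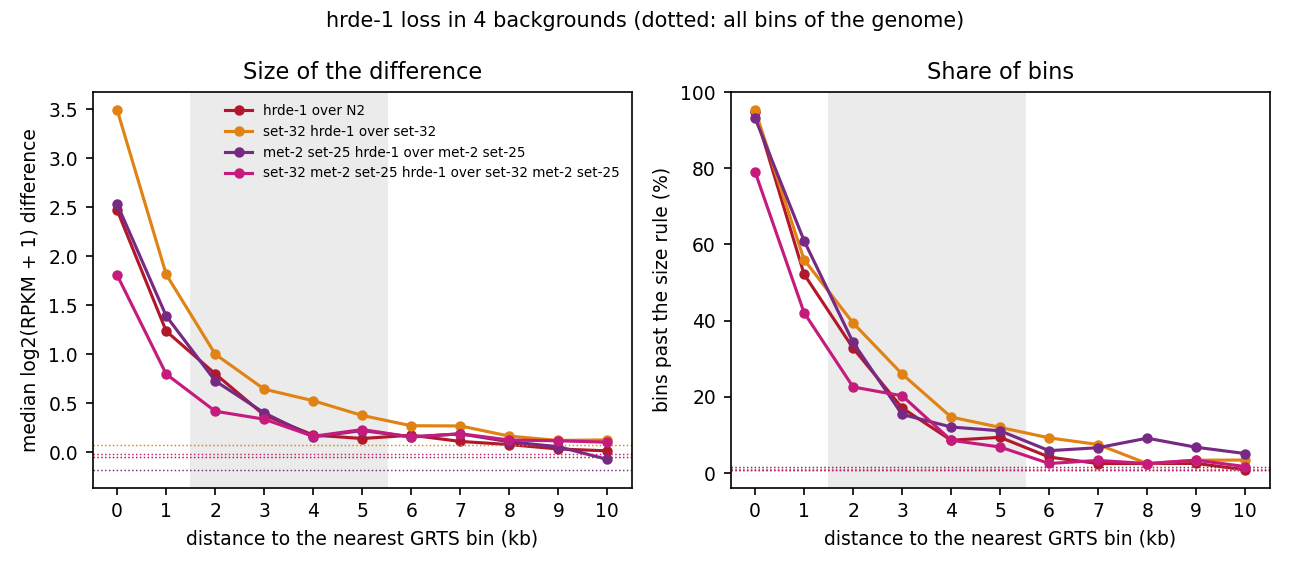
Left, median log2(RPKM + 1) difference of bins by distance in kb from the nearest GRTS bin; right, percent of bins past the size rule; each line is 1 pair of libraries whose genotypes differ by hrde-1 alone, and dotted lines are all bins of the genome. At 2 kb the medians are 0.80 in the N2 background, 1.00 in the set-32 background, 0.73 in the met-2 set-25 background and 0.42 in the set-32 met-2 set-25 background.

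The pairs shared part of their bins. Of the 493 flank bins, 168 passed the size rule in at least 1 pair (2.52% of all bins did) and 28 passed in all 4 (0.288% of all bins did). Of those 28 bins, 14 lay at 2 kb, 9 at 3 kb, 2 at 4 kb and 3 at 5 kb. The set-32 background and N2 had 65 bins in common, 55.6% of the set-32 list and 74.7% of the N2 list. The set-32 met-2 set-25 background shared 61 bins with the set-32 background, 82.4% of its own list and 52.1% of that of set-32. Of the 6 overlaps between backgrounds the smallest was 38 bins, between the set-32 met-2 set-25 background (51.4%) and N2 (43.7%). The flank bins made up 19.4%, 17.3%, 22.7% and 20.8% of each pair's difference in RPKM within 5 kb of GRTS bins, in the order of backgrounds.

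Whether the hrde-1 difference depends on the other factors was tested with a product term in the limma model, which leaves 3 residual degrees of freedom. For hrde-1 by met-2 set-25, 0 flank bins passed in either direction (0.0% of all bins higher and 0.001% lower). An unadjusted limma p below 0.05 was found in 49 flank bins, against 2429 of the 100027 bins tested. The median product term was -0.20 in the flanks, against -0.11 over all bins and -0.73 in GRTS bins. For hrde-1 by set-32, 9 flank bins passed with a larger hrde-1 difference in set-32 mutants, against 0.133% of all bins. A smaller difference passed in 1 flank bin, against 0.021%. An unadjusted limma p below 0.05 was found in 60 flank bins, against 3953 of the 100027 bins tested. The median product term was 0.17 in the flanks and 0.14 over all bins. With libraries centred on their median 0 flank bins passed, and likewise with quantile normalization and without the intensity trend. Leaving out 1 library at a time gave 1 bin without met-2 set-25 hrde-1, 2 without N2, 4 without set-32 and 4 without set-32 hrde-1. It gave 6 without met-2 set-25, and the largest count, 26, when set-32 met-2 set-25 was left out. Shares of all bins are not given for these omissions.

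The bins with a larger hrde-1 difference in set-32 mutants lay in a few places. Positions here are those of the deposited table, for which the sources used here give no genome build, and a bin is named by its chromosome and first base. III 13228001, III 13233001, III 13236001 and III 13237001 lie within 10 kb of one another. All but III 13228001 lie between GRTS bins. Pol II at III 13237001 was 50.2 RPKM in set-32 hrde-1 and 25.9 RPKM in the quadruple mutant, against 5.19 RPKM in hrde-1 and 9.57 RPKM in met-2 set-25 hrde-1. Their 4 partners read 3.29 to 4.55 RPKM there (product term 2.41 ± 0.46 SE, limma adjusted p = 0.00216). The mutants that lack both hrde-1 and set-32 stood well above that range. Without the hrde-1 library the term was 1.90 (limma adjusted p = 0.0509), and without the set-32 hrde-1 library 1.79 (adjusted p = 0.445).

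V 5203001 showed the same order, with 49.8 RPKM in set-32 hrde-1 and 22.8 RPKM in the quadruple mutant, against 8.39 RPKM in hrde-1 and 8.64 RPKM in met-2 set-25 hrde-1. Partners with intact hrde-1 read 1.32 to 6.11 RPKM (term 2.12 ± 0.49 SE, limma adjusted p = 0.0246). IV 16315001 differed, since a single library was high: 94.6 RPKM in the quadruple mutant, 5.61 to 12.9 RPKM in the other 3 hrde-1 mutants and 2.31 to 9.08 RPKM in their partners (term 2.30 ± 0.49 SE, limma adjusted p = 0.0116). Without the quadruple mutant this term was 1.24 (adjusted p = 1.0). At III 6642001 (2.17 ± 0.49 SE, limma adjusted p = 0.0239) and III 13233001 (2.17 ± 0.52 SE, limma adjusted p = 0.0442), set-32 hrde-1 was highest, at 31.0 and 32.9 RPKM, and set-32 lowest, at 1.32 and 0.88 RPKM. The terms of III 6642001, III 13233001 and V 5203001 were 1.07, 1.08 and 1.27 without the set-32 library (adjusted p = 1.0 each). Each of the 6 named product terms lost the threshold on leaving out at least 2 different libraries in turn. II 10942001 had the opposite sign, -1.82 ± 0.42 SE (limma adjusted p = 0.0299), and in the set-32 background it held 56.8 RPKM with hrde-1 lost and 54.0 RPKM without, against 58.1 and 23.4 RPKM in the N2 background.

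The other factors had fewer bins past the threshold. For loss of set-32, 0 flank bins passed in either direction (0.0% of all bins higher, 0.001% lower). An unadjusted limma p below 0.05 was found in 55, against 4133 of the 100027 bins tested. The median log2 change was 0.13, against 0.07 over all bins. For loss of met-2 set-25, 3 flank bins rose and 5 fell, against 0.318% and 0.127% of all bins. An unadjusted limma p below 0.05 was found in 166 of the 493 flank bins. Over the whole table the share was similar, 34987 of the 100027 bins tested. The median log2 change for met-2 set-25 was 0.40 over all bins and 0.27 in the flanks, so the typical flank bin lay below the shift of the whole table. With each library centred on its median, 0 flank bins rose and 46 fell with met-2 set-25 loss, against 0.398% and 5.79% of all bins, and with quantile normalization 0 passed. Without the met-2 set-25 hrde-1 library 127 flank bins rose and 48 fell, 175 in all, against 31.0% and 7.47% of all bins. Without N2 33 rose and 18 fell, 51 in all, against 4.88% and 1.91% of all bins. With any other library left out 2 to 15 passed.

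II 2166001 and II 2167001 are neighbours that rose with loss of met-2 and set-25. The libraries lacking both read 16.8 ± 1.50 and 16.9 ± 1.19 RPKM there, against 8.5 ± 3.53 and 8.65 ± 2.78 RPKM in the libraries with both genes (SD, n = 4 each; log2 changes 0.98 ± 0.20 and 0.94 ± 0.20 SE, limma adjusted p = 0.0287 and 0.0361). Neither passed for hrde-1. Among the bins that fell, V 315001, V 316001 and V 318001 lie within 4 kb. V 316001 held 23.6 ± 5.77 RPKM in the libraries lacking met-2 and set-25 and 50.7 ± 17.2 RPKM in the libraries with both genes (SD, n = 4 each; log2 change -1.04 ± 0.20 SE, limma adjusted p = 0.0165). V 318001 fell by 0.94 on the log2 scale with met-2 set-25 loss and rose by 1.53 with hrde-1 loss (limma adjusted p = 0.0457 and 4.8e-05). The other 3 bins were I 11304001 (log2 change 1.12), II 10935001 (-1.40) and II 15006001 (-1.06). Each of the 8 bins lost the threshold in several single-library omissions or alternatives.

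Single bins show the range of the hrde-1 difference. The bin at 2 kb with the largest change was IV 913001. It held 13.9, 110, 74.1 and 114 RPKM in the hrde-1 mutants, against 2.96, 5.56, 5.66 and 8.62 RPKM in their partners. The groups did not overlap, but the hrde-1 library was far below the other 3 hrde-1 mutants (log2 change 3.27 ± 0.27 SE, limma adjusted p = 3.86e-09). IV 4133001, which lies between GRTS bins, followed with 42.8, 148, 87.9 and 153 RPKM in the hrde-1 mutants, against 9.18, 5.93, 11.7 and 11.4 RPKM in their partners (log2 change 3.25 ± 0.25 SE, limma adjusted p = 1.74e-09). Here too the hrde-1 library was the lowest of the mutants. V 8838001, also between GRTS bins, held 26.5 ± 8.25 RPKM in the hrde-1 mutants and 4.01 ± 1.85 RPKM in their partners (SD, n = 4 each, log2 change 2.52). It had nearly the same values in every library as V 8880001, another flank bin, so reads may be shared between them and their separate changes are uncertain.

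At 3 kb the largest changes were on chromosome V. V 18444001 held 14.3, 31.7, 33.8 and 24.8 RPKM in the hrde-1 mutants and 2.16, 1.32, 3.99 and 5.78 RPKM in their partners (log2 change 2.71 ± 0.24 SE, limma adjusted p = 1.93e-08). V 5479001 was the most occupied of the named bins at this distance, with 61.9, 65.8, 55.2 and 41.4 RPKM in the hrde-1 mutants and 15.1, 13.7, 7.7 and 10.2 RPKM in their partners (2.19 ± 0.19 SE, limma adjusted p = 1.29e-08), and it adjoins a GRH bin. V 20301001 averaged 23.9 ± 8.07 RPKM in the hrde-1 mutants and 4.57 ± 1.36 RPKM in their partners (SD, n = 4 each; log2 change 2.13). In these 3 bins every hrde-1 mutant was above every other library. V 18444001 and V 20301001 lie between GRTS bins.

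At 4 kb the changes were smaller. V 1591001 held 23.7 ± 7.22 RPKM in the hrde-1 mutants and 6.73 ± 1.95 RPKM in their partners (log2 change 1.66 ± 0.22 SE, limma adjusted p = 2e-05), and V 8478001 held 15.6 ± 2.59 RPKM in the hrde-1 mutants and 5.03 ± 1.52 RPKM in their partners (1.48 ± 0.22 SE, limma adjusted p = 0.000122; SD, n = 4 each). III 13235001, which lies between GRTS bins, was high in the mutants that lack both hrde-1 and set-32. It held 6.61, 38.6, 6.44 and 16.9 RPKM in the hrde-1 mutants and 2.94, 2.02, 4.94 and 7.92 RPKM in their partners, so the groups overlap (log2 change 1.50 ± 0.33 SE, limma adjusted p = 0.0154). Its change was 0.93 without set-32 hrde-1 (limma adjusted p = 0.251) and 0.95 without set-32 (adjusted p = 0.0799). With the pairs of libraries as a block, its limma adjusted p was 0.0647.

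At 5 kb II 14980001 had the largest change. Its 4 hrde-1 mutant libraries held 16.4 ± 1.02 RPKM, and the other 4 held 3.98 ± 1.33 RPKM (SD, n = 4 each; log2 change 1.85 ± 0.22 SE, limma adjusted p = 2.28e-06). Its neighbour II 14981001, at 4 kb, was lower throughout, with 4.89 to 6.67 RPKM in the hrde-1 mutants and 1.0 to 3.3 RPKM in the others. The groups did not overlap there either, but the bin did not pass (log2 change 1.14 ± 0.32 SE, limma adjusted p = 0.125). V 1592001 held 18.3 ± 3.85 RPKM in the hrde-1 mutants and 5.48 ± 2.59 RPKM in their partners, a log2 change of 1.63 (SD, n = 4 each). IV 16312001 held 71.0 RPKM in the quadruple mutant, 9.62 to 25.1 RPKM in the other 3 hrde-1 mutants and 3.38 to 10.5 RPKM in the libraries with intact hrde-1 (1.51 ± 0.26 SE, limma adjusted p = 0.000795), so the groups overlap and 1 library stands above the rest. Without both evenly covered libraries its change was 1.12 (limma adjusted p = 0.0855), and with the name prefix of the libraries as a term it was 1.04 (adjusted p = 0.126 or 0.257, by how the prefixes are joined). Of the 12 bins named for hrde-1, 9 stayed past the threshold under all 19 alternatives run for them.

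The largest changes that did not pass, by distance, were at IV 1133001 (3 kb, log2 change 1.62, limma adjusted p = 0.0536), III 6642001 (5 kb, 1.22, adjusted p = 0.184), II 14981001 and IV 524001 (2 kb, 1.13, adjusted p = 0.227). At IV 1133001 the hrde-1 mutants held 4.7 to 24.9 RPKM and the others 0.33 to 7.43 RPKM.

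To ask how far the gain ran without a break, GRTS bins with at most 1 bin between them were joined, which gave 80 clusters, 44 of them a single bin and the longest with 18 GRTS bins. Some clusters read nearly alike, such as those starting at V 8826001 and V 8868001, each with 11 GRTS bins and a mean log2 change of 3.48. Reads may be shared between them, so clusters and sides need not be independent. Each of the 160 sides was followed outward to 5 kb until the first bin that did not rise in the limma fit. On 60 sides the first bin did not rise, so the reach was 0. The reach was 1 kb on 35 sides, 2 kb on 38, 3 kb on 15, 4 kb on 4 and 5 kb on 8. A reach of at least 2 kb was thus found on 65 of 160 sides and of at least 3 kb on 27. The walk also stepped through bins left out of the flanks for a mark of their own. Through flank bins alone from 2 kb on, 59 sides reached at least 2 kb, 23 at least 3 kb and 5 the full 5 kb. Another cluster ended the walk on 29 sides, most of which had a reach of at least 2 kb. These walks ran in gaps between clusters, and most of the gaps were followed from both ends. The 8 flank bins at equal distance from a cluster on each side count toward both sides. Without the intensity trend a reach of at least 2 kb was found on 20 sides.

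The reach was compared between both sides of each cluster. Another cluster cut some of these walks short, and whether one-sided reach was more frequent than independent sides would give was not tested. The reach was at least 2 kb on both sides of 16 clusters, on 1 side of 33 and on no side of 31. In 19 of the 33, the other side had a reach of 0. Of the 65 sides, 35 lay toward lower and 30 toward higher coordinates. Of the 113 bins that rose, 91 belonged to an unbroken run from a cluster and 22 lay beyond a bin that did not rise. The bins beyond a break numbered 3 at 2 kb, 6 at 3 kb, 5 at 4 kb and 8 at 5 kb, so at 5 kb most of the 14 higher bins were not joined to the cluster.

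Long sides occurred at clusters of every size. Clusters of 1 GRTS bin had a reach of at least 2 kb on 37 of 88 sides, those of 2 to 3 GRTS bins on 15 of 46, and those of at least 4 on 13 of 26. The mean change of a side's flank bins and that of its cluster were weakly related (Pearson r = 0.16, Spearman rho = 0.13, over 148 sides that share the same 8 libraries). In 24 flank bins, 18 of which rose, the change exceeded that of the nearest GRTS bin.

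Under the size rule each genotype gave its own reach. In the N2 background, 80 sides reached at least 1 kb, 42 at least 2 kb and 6 the full 5 kb. In the set-32 background these were 87, 58 and 11 sides, in the met-2 set-25 background 96, 54 and 7, and in the set-32 met-2 set-25 background 64, 33 and 4. The mean reach over the 160 sides was 0.938, 1.29, 1.21 and 0.75 kb in the order of backgrounds. With 1 library on each side these differences between pairs were not tested.

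**Figure D4:**
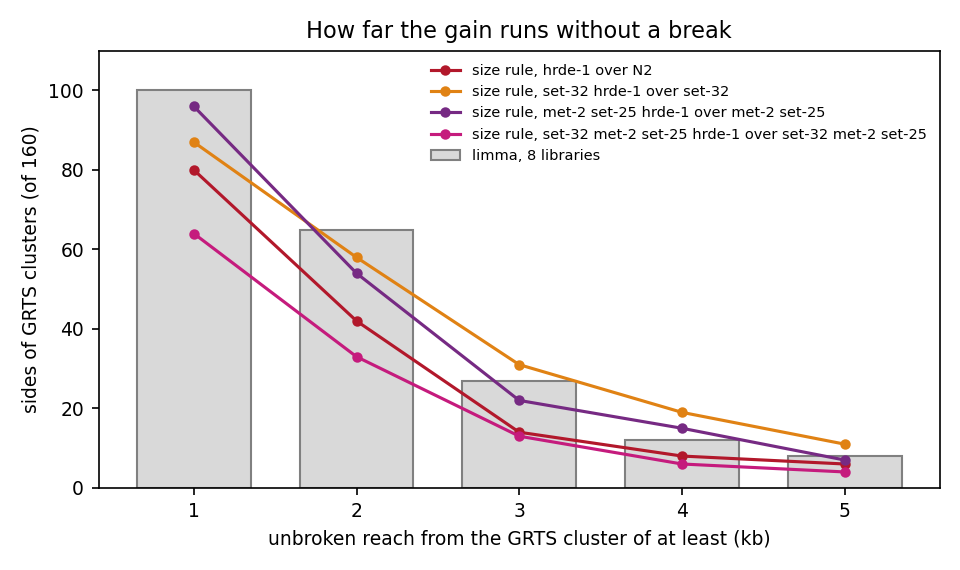
Number of the 160 sides of GRTS clusters whose bins rose without a break to at least 1, 2, 3, 4 or 5 kb; grey bars are the limma fit over 8 libraries and lines the size rule in each pair of libraries. The bars fall from 100 sides at 1 kb to 65 at 2 kb and 8 at 5 kb. Sides whose walk another cluster ended are included.

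On 6 sides all 4 flank bins rose, and the 5 with the largest summed change all start at a single GRTS bin. The side of V 8482001 toward lower coordinates averaged 17.4, 22.1, 16.4 and 17.7 RPKM over its 4 flank bins in the hrde-1 mutants, against 6.19, 2.65, 5.3 and 7.74 RPKM in their partners. Its flank bins declined outward, from 23.8 ± 5.07 RPKM at 2 kb to 15.3 ± 0.625 RPKM at 5 kb in the hrde-1 mutants. Their partners held 5.6 ± 3.22 and 5.16 ± 2.25 RPKM there (SD, n = 4 each). Beyond the flank the hrde-1 mutants held 8.27 to 12.6 RPKM at 6 kb. At 8 kb they read higher again, at 13.09, 15.0, 31.25 and 23.26 RPKM, against 5.02 to 9.57 RPKM in their partners. The side of I 11055001 toward higher coordinates was the most occupied, at 29.8 to 46.7 RPKM in the hrde-1 mutants and 11.1 to 16.4 RPKM in the others. The corresponding side of V 5754001 averaged 14.1 to 17.8 RPKM in the hrde-1 mutants and 4.24 to 7.01 RPKM in the others. That of V 11485001 averaged 21.4 to 24.9 RPKM in the hrde-1 mutants and 7.74 to 9.32 RPKM in the others. On each of these sides every hrde-1 mutant was above every other library.

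On the side of V 1587001 toward higher coordinates the log2 change was larger at 4 and 5 kb than at 2 kb. Its GRTS bin changed by 0.95 on the log2 scale, while the flank bins changed by 1.04 at 2 kb, 1.34 at 3 kb, 1.66 at 4 kb and 1.63 at 5 kb. Over these 4 bins Pol II averaged 25.5, 21.5, 13.3 and 18.0 RPKM in the hrde-1 mutants. The libraries with intact hrde-1 averaged 5.54 to 8.72 RPKM. On the side of V 11485001 the change was also larger at 4 and 5 kb (1.45 and 1.34) than at 2 kb (1.28). There, however, it stayed below the 2.52 of the GRTS bin.

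**Figure D5:**
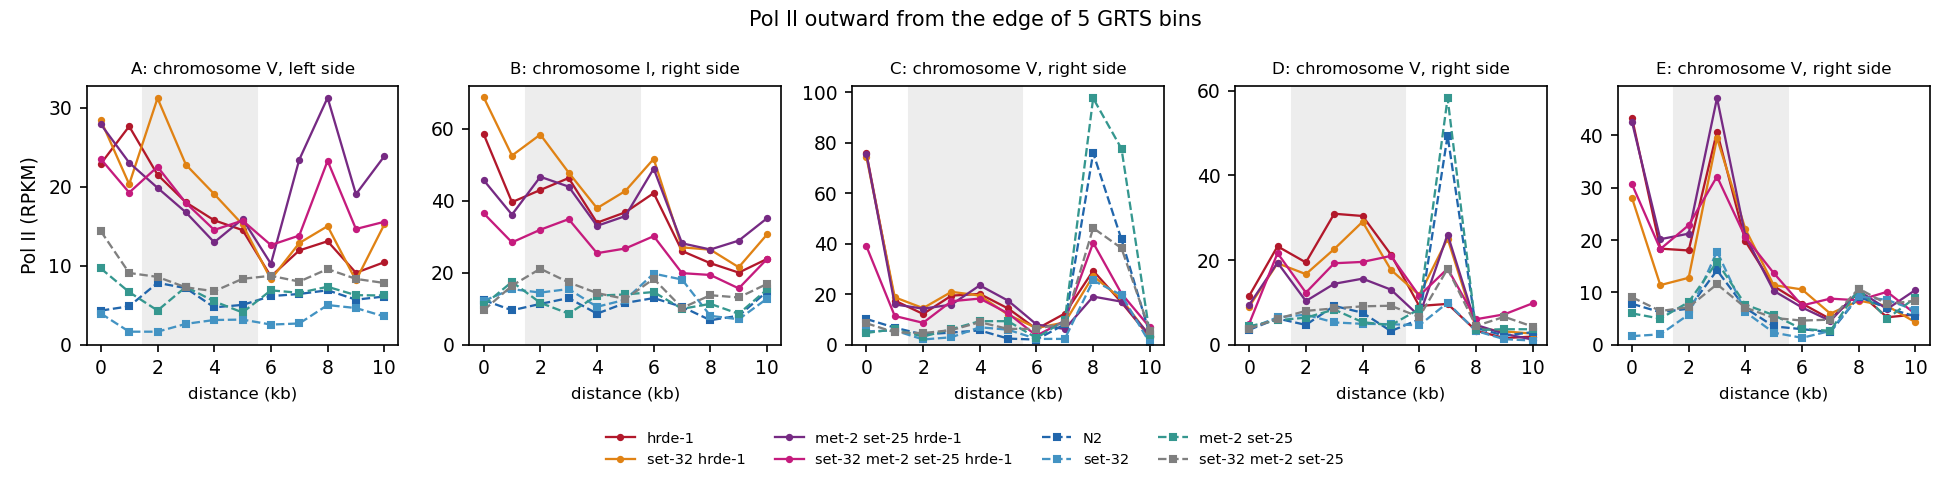
Pol II (RPKM) outward from 5 single GRTS bins, by distance in kb with the GRTS bin at 0, on the sides with the longest runs of higher flank bins: A, V 8482001; B, I 11055001; C, V 5754001; D, V 1587001; E, V 11485001. Solid lines are hrde-1 mutants and dashed lines the others; in D the flank lies above its GRTS bin, with 23.7 RPKM at 4 kb as the mean of the hrde-1 mutants against 6.73 RPKM in the others.

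Among the flank bins, 33 had a bin elsewhere in the table whose values in all 8 libraries lay within 0.15 on the log2 scale, 5 of them bins that rose. These were V 8838001, V 8880001, V 11481001, IV 12510001 and IV 12511001. The last pair had 17 and 12 such bins, which in each case include the other bin of the pair. Reads of these bins may be shared with other copies. The share of all bins with such a match is not given here, so similar values by chance cannot be told from shared reads.

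The libraries carry 3 name prefixes in the labels, and the hrde-1 mutants are not spread evenly over them: 3 of 4 libraries of SG0117, 1 of 3 of SG0615 and 0 of 1 of SG1115. Within SG0117 the pair of the set-32 background gave 117 flank bins past the size rule, and within SG0615 that of the met-2 set-25 background gave 93. The other pairs join different prefixes: SG0117 over SG0615 in the N2 background and SG0117 over SG1115 in the set-32 met-2 set-25 background. There hrde-1 loss and prefix cannot be told apart. With prefix as a term in the limma model 99 flank bins rose where SG1115 was joined to SG0615 and 98 where it was kept apart, and 1 fell in each. Of all bins tested 0.716% and 0.729% rose under these models.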

How the data were processed

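The authors deposited 1 table of RPKM per 1 kb bin with yes-or-no marks. Per the submitters' processing notes, the aligner was Bowtie 0.12.7. The sources used here do not give build, filters or the treatment of repeated reads. Only columns matching 1 sample's label were used, leaving 35 of 43 library columns unused. The 3 H3K9me3 libraries were not analysed here. Depth was estimated from the step of low values (2.99 to 6.6 M reads). RPKM were not turned into counts, because fractions of a read remained.

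Members, lists and tests were chosen with earlier results of these data known. limma 3.58.1 (R 4.3.3) was fitted with an intensity trend on log2(RPKM + 1), which understates fold changes of low bins, over all bins averaging 2 RPKM or more. Tests were two-sided, with a Benjamini-Hochberg threshold of 0.05. The fit was tested on simulated data. Medians, pairs and reach carry no test (Python 3.11.15, numpy 2.4.6, pandas 2.3.3, matplotlib 3.10.9).

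Named bins were the 3 largest passing changes per distance for hrde-1, up to 5 passing bins per direction for the other terms, the 5 sides with the longest runs and the largest change not passing at each distance. III 13228001, III 13236001, IV 16313001, V 18459001, V 8880001, V 11481001, IV 12510001 and IV 12511001 were named after their values were seen. Alternatives concerned the pseudocount, filter, scaling, prefix, pairing by background, moderation, libraries, membership and size rule.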

Additional observations from a re-analysis of the deposited data

Results flagged for a closer look

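Over the 4 pairs of libraries, the median log2 difference of flank bins at 4 kb was 0.52 in the set-32 background. This was far from the 0.16 to 0.17 of the other 3 pairs. Relative to the median of all bins of each pair, the values were 0.22, 0.45, 0.34 and 0.18 in the order of backgrounds. On that scale the set-32 background was still the largest, but the other 3 were not close together. At V 8838001 the set-32 hrde-1 library, with 38.8 RPKM, stood apart from the other 3 hrde-1 mutants. At IV 16315001 the quadruple mutant did so with 94.6 RPKM. At III 6642001 the set-32 library, with 1.32 RPKM, lay far below the other 3 libraries with intact hrde-1. In all, 70 groups of 4 values were examined and 4 held such a value, near the rate of about 1 in 20 that chance gives among replicates. The 4 values of a group come from different genotypes, and most groups are bins named for their results. That rate is therefore only a rough guide.

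The hrde-1 difference differed between set-32 mutants and the rest in 10 flank bins, by the product term in limma with Benjamini-Hochberg adjustment. The term was positive, meaning a larger difference in set-32 mutants, at III 13237001 (2.41), IV 16315001 (2.30), III 6642001 (2.17), III 13233001 (2.17), V 5203001 (2.12), IV 16313001 (2.06), III 13236001 (2.03), V 18459001 (1.93) and III 13228001 (1.90), and negative at II 10942001 (-1.82). At IV 16313001, as at IV 16315001, a single library was high, with 118 RPKM in the quadruple mutant and 5.13 to 12.7 RPKM in the other 7.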

How the results depend on the processing

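The count of 113 flank bins higher with hrde-1 loss lay between 87 and 128 under the alternatives that keep all or 6 libraries, except for 34 without the intensity trend, and between 90 and 131 with 1 library left out. The 87 came with a mean of at least 5 RPKM, where 329 flank bins were tested and 1.33% of all bins rose. Other alternatives changed which bins count as flank bins, so these counts do not share 1 denominator. The count was 35 among the 200 bins at mostly whole reads, an alternative chosen after seeing the data. The count of lower bins was 1 with a pseudocount of 4 RPKM, 1 with either prefix term and 0 to 1 with a library left out. Sides with a reach of at least 2 kb numbered 20 without the trend and 51 to 68 with a library left out. Medians kept their sign: with a mean of at least 5 RPKM they were 1.06 at 2 kb, 0.59 at 3 kb and 0.30 at 5 kb, and with a library left out 0.69 to 0.93, 0.33 to 0.47, 0.15 to 0.34 and 0.16 to 0.28 at 2, 3, 4 and 5 kb.

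For set-32 loss, 2 flank bins passed with the joined prefix as a term, against 0.009% of all bins higher and 0.001% lower. With SG1115 apart 4 passed, against 0.028% and 0.002%, and with a library left out 0 to 7. For met-2 set-25 loss, in place of 8 bins, 5 passed with a pseudocount of 0.5, against 0.206% of all bins higher and 0.063% lower. A pseudocount of 4 gave 19, against 1.22% and 0.495%. Centring gave 46, against 0.398% and 5.79%, and the joined prefix 4, against 0.046% and 0.052%. At mostly whole reads 1 passed. With a mean of at least 5 RPKM, quantile normalization, no trend or without both evenly covered libraries 0 passed. With a library left out the range was 2 to 175. For hrde-1 by set-32, in place of 10, 2 passed with a pseudocount of 0.5, against 0.083% of all bins higher and 0.009% lower. With SG1115 apart 27 passed, 21 higher and 6 lower, against 0.974% and 0.343%. Without both evenly covered libraries 43 passed, and at mostly whole reads 6. With a mean of at least 5 RPKM, centring, quantile normalization or no trend 0 passed. When a library was left out the count was 1 to 26. For hrde-1 by met-2 set-25, 1 passed with the joined prefix, against 0.003% of all bins higher and 0.043% lower. Without both evenly covered libraries 3 passed, and with a library left out 0 to 17. Where no share of all bins stands beside a count, the flanks and the whole table cannot be compared. By pair, in the order of backgrounds N2, then set-32, then met-2 set-25, then set-32 met-2 set-25, a log2 difference of at least 2 left 16, 64, 23 and 8 bins, and mostly whole reads 28, 42, 22 and 30. The last pair had 48 with a pseudocount of 4 and 115 with quantile normalization. The cause of these shifts was not tested, apart from the smaller number of bins under the stricter filter and at whole reads.

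Labels give no genotype a second sample, but libraries pair by background. With each pair as a replicate block, an alternative chosen after seeing the data, 113 flank bins rose, 0 fell and 64 sides reached 2 kb. The share of all bins that rose under this alternative is not given here. Of the 12 bins named for hrde-1, III 13235001 lost its call (limma adjusted p = 0.0647). Depth limits low bins most: at 10 RPKM the counting error alone was 12.3 to 18.3%.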
